A study of Mus musculus with 12 samples.

Results

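The genes described here make cholesterol and fatty acids, sense the supply of sterol, or move sterol out of the cell. They were followed in 12 RNA sequencing libraries of 8946, a mouse T cell leukemia line. The 37 genes were chosen by symbol from the 23284 symbols of the deposited tables and fall into 5 branches. These are 8 genes of the mevalonate steps, 10 of the sterol steps, 6 SREBP regulators, 9 genes of fatty acid synthesis and 4 genes of LXR efflux. The choice of genes used no measured value, but it was made with results from these libraries known.

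Cells of every group had received a pair of retroviruses and were sorted as GFP+ and NGFR+. The first virus was the empty MigR1 vector or one encoding Notch1 L1601P (a leukemia-type mutant of the Notch1 receptor) with GFP, and the second was the empty NGFR vector or one encoding the coactivator Zmiz1 with NGFR. The 4 groups of 3 libraries each are called control (both vectors empty), Zmiz1, Notch1 and combined (both genes), as in the sample titles. The cell line labels of the Zmiz1 and Notch1 groups name the vectors the other way round (L1601P/NGFR for the Zmiz1 group, MigR1/Zmiz1 for the Notch1 group). The column headers of the files and the vector genes went with the titles: Zmiz1 lay at 67.7 to 74.4 FPKM in the Zmiz1 group against 0.170 to 0.180 in the control, and Notch1 at 22.1 to 42.2 FPKM in the Notch1 group against 1.80 to 1.97. FPKM are fragment counts scaled by transcript length and library size, so levels can be compared between genes. Ngfr, the symbol of the sort marker, lay at 82.8 to 88.9 FPKM in the control and 61.4 to 80.3 in the Notch1 group. It lay at 7.23 to 7.71 FPKM in the Zmiz1 group and 5.62 to 5.66 in the combined group. The cause of this difference between groups was not tested. All groups are of 1 cell line. The labels do not say whether replicates were separate cultures or transductions, and the p-values cover the spread among the deposited libraries alone.

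Cholesterol is built from acetyl-CoA, first along the mevalonate steps to isoprenoids and then along the sterol steps that begin with squalene. When sterol is scarce, SCAP escorts the SREBP transcription factors from the endoplasmic reticulum to the Golgi, where they are cleaved and released to activate genes of sterol and fatty acid synthesis. INSIG proteins hold the complex back when sterol is plentiful. The LXR receptors respond to oxidized sterols by switching on exporters such as ABCA1 and ABCG1. Dividing T cells draw on these routes for membrane.

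Promoter sequences are shown for 4 genes to give the letters around the start sites of members that rose (Idi1, Mvd), fell (Acss2) or carried a consensus SREBP site (Hmgcs1). They are RefSeq sequences of build GRCm38.p6, the 250 bases before the RefSeq start site, written 5′ to 3′ on the gene's strand. The GENCODE M21 annotation starts Idi1 at 8885501 and Acss2 at 155517948, inside the stretches shown. By that annotation the marked boxes of these 2 genes lie within the gene. Capitals mark the SREBP site TCACNCCAC and the NF-Y box CCAAT on either strand (CCAAT reads ATTGG on the other strand).
Hmgcs1 (chr13:119690101-119690350, plus strand): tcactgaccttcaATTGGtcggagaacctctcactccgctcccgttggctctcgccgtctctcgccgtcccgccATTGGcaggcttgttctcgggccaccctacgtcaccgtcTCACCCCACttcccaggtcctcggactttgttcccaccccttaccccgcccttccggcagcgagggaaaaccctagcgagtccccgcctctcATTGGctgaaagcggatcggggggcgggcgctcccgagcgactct
Idi1 (chr13:8885356-8885605, plus strand): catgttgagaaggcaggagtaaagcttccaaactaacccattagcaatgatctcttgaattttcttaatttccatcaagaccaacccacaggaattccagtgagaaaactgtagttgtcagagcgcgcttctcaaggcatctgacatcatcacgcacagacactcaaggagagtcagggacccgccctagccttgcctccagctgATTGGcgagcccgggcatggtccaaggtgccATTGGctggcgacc
Mvd (chr8:122443423-122443672, minus strand): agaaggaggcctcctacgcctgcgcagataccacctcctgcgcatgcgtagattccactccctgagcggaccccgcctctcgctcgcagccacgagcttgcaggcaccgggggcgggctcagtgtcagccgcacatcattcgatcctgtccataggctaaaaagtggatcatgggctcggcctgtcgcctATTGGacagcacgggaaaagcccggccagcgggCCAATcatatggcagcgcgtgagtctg
Acss2 (chr2:155517793-155518042, plus strand): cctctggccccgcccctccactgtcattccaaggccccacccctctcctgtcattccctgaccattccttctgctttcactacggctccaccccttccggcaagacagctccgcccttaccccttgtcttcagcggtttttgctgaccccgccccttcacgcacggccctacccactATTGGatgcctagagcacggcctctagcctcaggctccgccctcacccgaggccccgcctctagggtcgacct

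Hmgcs1 held 1 SREBP site and 3 NF-Y boxes in this stretch, Idi1 and Mvd held 2 NF-Y boxes each, and Acss2 held 1. Of the 37 genes, 29 had a promoter in the RefSeq table (from 250 bases before to 50 after the start, counting a gene if any of its windows matched). NF-Y is a general promoter factor that SREBPs often act beside, and its box was found in 22 of the 29 (75.9%), against 44% of the 7171 tested genes with a promoter. It was present in 8 of 8 sterol genes, 6 of 7 mevalonate genes, 4 of 5 SREBP regulators, 3 of 6 fatty acid genes and 1 of 3 LXR genes. The SREBP site was found in 1 of 29 (3.45%, against 1.41%), the E-box CACGTG in 6 (20.7%, against 12.4%) and the Sp1 box GGGCGG in 23 (79.3%, against 70.9%). Matches were searched on both strands and counted per motif, so different motifs may overlap. Only exact matches to these letters were counted, so a promoter without a match may hold a site spelled otherwise. Fdps, Fdft1, Sqle, Stard4, Scd1, Scd2, Fads1 and Abcg1 were not matched.

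**Figure D1:**
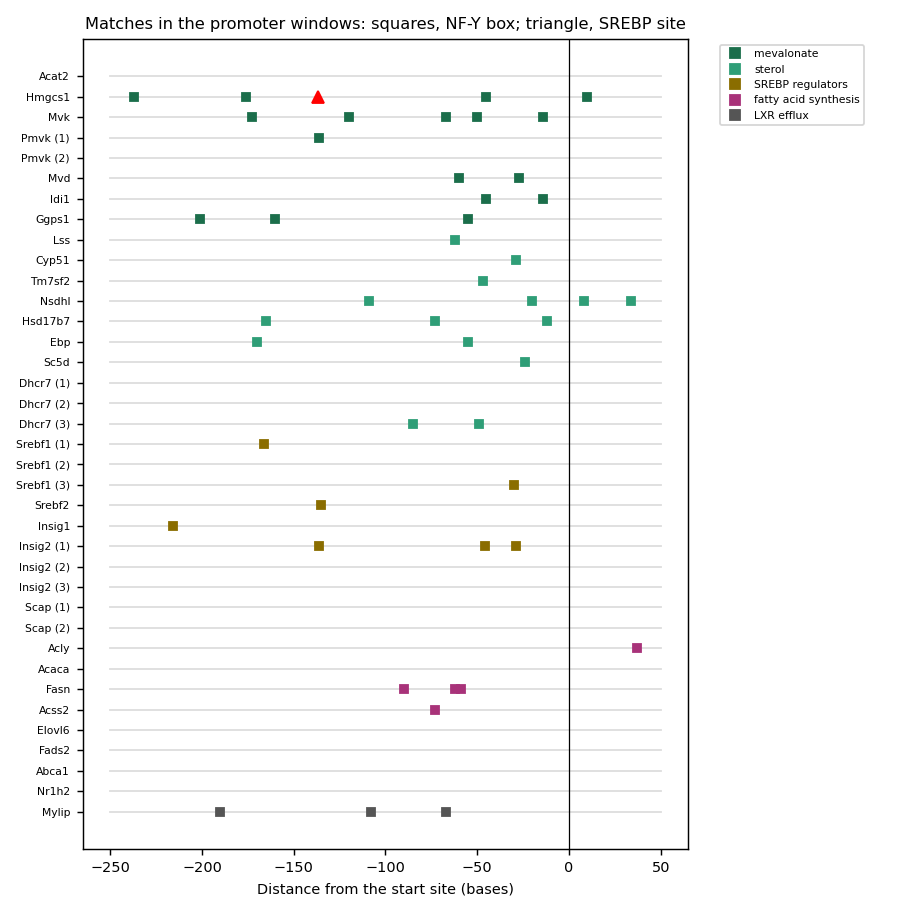
Positions of the NF-Y box (squares, coloured by branch) and the SREBP site (triangle) in the promoter windows of 29 genes, by distance in bases from the start site; numbers in brackets separate windows of a gene. The only exact match to the SREBP site TCACNCCAC is in Hmgcs1, and each of the 8 sterol genes has an NF-Y box in at least 1 window.

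The labelled T cell identity was borne out by the marker genes. The summed level of 6 T cell markers was 3016 to 3113 FPKM in the control, 2539 to 2808 in the Zmiz1 group, 3127 to 3539 in the Notch1 group and 2951 to 3083 in the combined group, while 4 B cell markers summed to at most 0.554, 4 erythroid markers to at most 0.536, 2 NK cell markers to at most 0.475 and 4 fibroblast markers to at most 1.18 FPKM. The 4 myeloid markers summed to 51.1 to 102 FPKM, nearly all of it Itgam, an integrin chain that some T cells also carry: 97.7 to 102 FPKM in the control, 91.3 to 100.01 in the Zmiz1 group, 50.9 to 58.2 in the Notch1 group and 59.1 to 61.5 in the combined group. Csf1r, Lyz2 and Mpo, the other myeloid markers, were near 0, and the part of Itgam in the results was not tested. Read totals are not part of the files. Relative depth, judged from low FPKM of 2922 genes, ran from 0.769 (Zmiz1 replicate 2) to 1.21 (Notch1 replicate 1). This is a rough estimate, as only 43.5% of the low values lay within 0.05 of a whole multiple of the gene's lowest value. Zmiz1 replicate 2 and Notch1 replicate 3 stood apart: of the 10152 genes tested, 22.6% and 20.8% had their highest value of all 12 libraries there.

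Transcripts of this module ranged widely in level. Srebf2, the SREBP of cholesterol synthesis, was the highest, at 129.8 to 172 FPKM over the 12 libraries. Acly, which makes cytosolic acetyl-CoA from citrate, lay at 94.8 to 109.9 FPKM and Scd2, a fatty acid desaturase, at 88.5 to 123.5. Srebf1, the SREBP best known for fatty acid genes, lay lower, at 34.8 to 51.2 FPKM. At the other end, Lss (lanosterol synthase) lay at 3.84 to 5.59 FPKM and Tm7sf2 (a sterol reductase) at 2.3 to 3.81.

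Of the 37 genes 34 passed the filter on low values, a mean of 1 FPKM over all libraries. The other 3 were nearly silent in this line. Scd1, the desaturase that dominates in liver, was at most 0.111 FPKM, whereas Scd2, of the same family, was among the highest of the module. Fads2, a desaturase of polyunsaturated fatty acids, was at most 0.435 FPKM, while Fads1, its neighbour in the pathway, lay at 9.93 to 14.7. Abca1, the main LXR-driven exporter, was listed at 0 in 10 libraries and was at most 0.0051 FPKM, while the related exporter Abcg1 lay at 10.5 to 17.9. None of the 3 passed the test in any comparison in a fit without the filter. Their lowest adjusted p was 0.258.

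**Figure D2:**
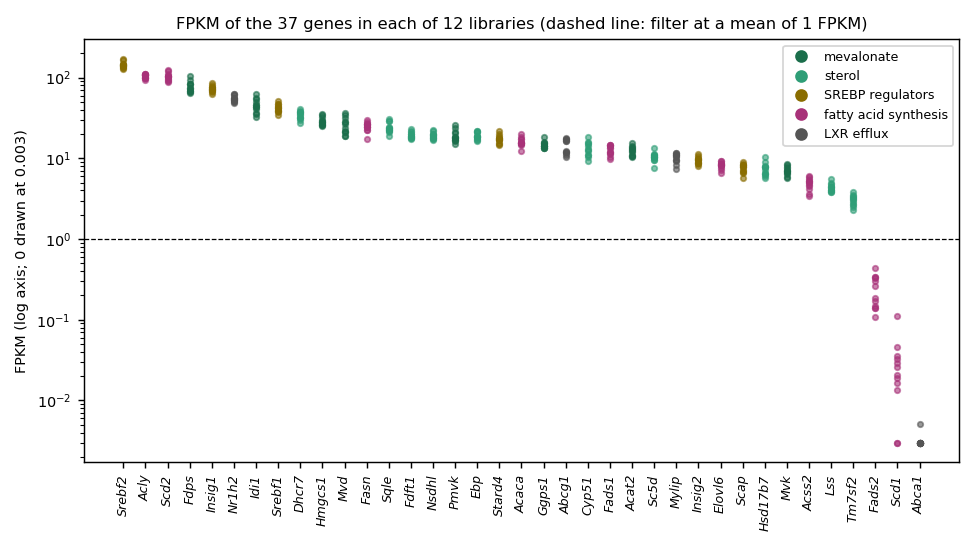
FPKM (log axis) of each of the 37 genes in each of the 12 libraries, ordered by mean and coloured by branch, with values at 0 or under 0.003 drawn at 0.003. Srebf2, Acly and Scd2 are highest, and Fads2, Scd1 and Abca1 lie under the dashed line of the filter.

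The comparison of the Notch1 group with the control addresses the effect of the Notch1 mutant on its own. Enzymes of the mevalonate and sterol steps were higher: Idi1, Fdps and Sqle rose by 46.8%, 30.6% and 29.6% of the control mean. Fads1 rose by 31.4%, and Abcg1, the sterol exporter, fell by 34.5%. In all, 4 of the 34 tested genes rose, 1 fell and 29 were not called, that is 14.7% called against 5.49% of the 10152 genes tested (3.19% rose and 2.3% fell). Called, rose and fell refer to a limma adjusted p under 0.05, adjusted by Benjamini-Hochberg across the whole set of tested genes. All 3 Notch1 libraries lay above all 3 control libraries for 15 of the 34 genes and below them for 3, against 15.8% and 10.3% of all genes (26.1% in either direction). In bulk RNA, fewer cells expressing a gene and less RNA per cell cannot be told apart.

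Idi1 makes the allylic isoprenoid unit from its isomer (chromosome 13, 8885501 to 8892451, GENCODE M21, GRCm38). It read 42.7, 36.7 and 35.5 FPKM in the control and 62.8, 50.6 and 55.2 in the Notch1 group. Every Notch1 library was above every control library (log2 fold change 0.54 ± 0.12 SE, adjusted p = 0.0291). Fdps, the synthase of farnesyl diphosphate at the branch point to sterols and prenyl groups (chromosome 3, 89093588 to 89101959), read 66.6, 75.0 and 72.2 FPKM in the control and 83.1, 92.7 and 103.4 in the Notch1 group. Again the groups did not overlap (0.38 ± 0.08, adjusted p = 0.0246).

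Sqle, the squalene epoxidase that commits carbon to sterol (chromosome 15, 59315077 to 59331192), read 23.9, 22.4 and 22.5 FPKM in the control. In the Notch1 group it read 31.1, 29.4 and 28.8 (log2 fold change 0.36 ± 0.06, adjusted p = 0.00732). The values did not overlap, and the spread within each group was small. Fads1, the delta-5 desaturase of polyunsaturated fatty acids (chromosome 19, 10182888 to 10196877), read 11.8, 9.93 and 11.2 FPKM in the control and 14.2, 14.6 and 14.5 in the Notch1 group (0.37 ± 0.08, adjusted p = 0.0211). All of its Notch1 values stood above all control values.

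Abcg1 went the other way (chromosome 17, 31057675 to 31117988). It read 17.9, 17.4 and 16.7 FPKM in the control, 11.9, 11.7 and 10.5 in the Notch1 group, 16.4, 17.3 and 16.4 in the Zmiz1 group and 12.2, 11.9 and 11.1 in the combined group. Its level split by the presence of the Notch1 vector, and no library with that vector reached the lowest library without it. Abcg1 fell by 0.57 on the log2 scale in Notch1 against control (SE 0.06, adjusted p = 3.48e-04), by 0.47 in combined against Zmiz1 (adjusted p = 0.00141) and by 0.53 in combined against control (adjusted p = 5.03e-04). The first and the last of these share the control libraries, and the second and the last share the combined libraries.

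Around the called genes, most of the cholesterol branch lay above the control without passing the test. All 10 sterol genes had a positive fold change (median 0.22) and 7 of 8 mevalonate genes did (median 0.32), where the median of all genes tested was 0.02 and 56.7% were positive. In the mevalonate branch 7 of 8 genes, and in the sterol branch 6 of 10, had all 3 Notch1 libraries above all 3 control libraries (15.8% of all genes). Cyp51, the lanosterol demethylase, read 13.2, 11.03 and 10.99 FPKM in the control and 18.4, 15.9 and 15.5 in the Notch1 group. Its fold change of 0.47 ± 0.15 was the largest of the sterol branch, but its adjusted p was 0.111. Tm7sf2 was close to the threshold (0.33 ± 0.09, adjusted p = 0.0531), and Mvd, the mevalonate diphosphate decarboxylase, was not called (0.38 ± 0.12, adjusted p = 0.0978). With the replicate number as a block, Mvd and Tm7sf2 were called (limma adjusted p of 0.00751 and 0.0348). Without Zmiz1 replicate 2, Cyp51, Mvd and Tm7sf2 were called (0.0135, 0.0299 and 0.0322).

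The remaining genes of these steps were not called in the fit of all libraries without a replicate block. Pmvk and Dhcr7 were called with the block (limma adjusted p of 0.0131 and 0.0248), and Acat2 without Zmiz1 replicate 2 (0.0103). Acat2 (acetoacetyl-CoA thiolase), Pmvk and Mvk (the kinases of this route), Hmgcs1 (HMG-CoA synthase) and Lss had fold changes of 0.30, 0.34, 0.22, 0.22 and 0.26. Hsd17b7, Dhcr7, Sc5d, Nsdhl, Fdft1 and Ebp, which act from squalene synthesis to the last reductions of the sterol ring, lay between 0.11 and 0.23. Ggps1, which diverts isoprenoid to geranylgeranyl groups, was the exception, at -0.04.

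The SREBP regulators were not called in this comparison in the fit of all libraries without a replicate block. Srebf1 was called with the replicate number as a block (adjusted p = 0.0264) and without Zmiz1 replicate 2 (adjusted p = 0.0445). Srebf2 was called without Notch1 replicate 3 (0.25, adjusted p = 0.0171). Srebf1 was at 0.27 ± 0.08 (adjusted p = 0.0946), with 37.5, 39.1 and 42.4 FPKM in the control and 46.6, 51.2 and 46.7 in the Notch1 group, and the groups did not overlap. Srebf2 was at 0.17, Insig1 at 0.17, Stard4 (a sterol carrier) at 0.08, Insig2 at 0.06 and Scap at -0.09. Genes of fatty acid synthesis other than Fads1 showed no common direction. Elovl6, which lengthens palmitate, was below the control in every library but not called (-0.22 ± 0.07, adjusted p = 0.089). It was called with the replicate block (limma adjusted p = 0.0451) and without Zmiz1 replicate 2 (0.04035). Acss2, Acaca, Scd2, Acly and Fasn were at 0.09, 0.11, 0.01, -0.06 and -0.13, and the branch median of 0.01 was -0.02 under median ratio scaling and -0.07 under quantile normalization. Nr1h2, the LXR beta receptor, was at 0.13, and Mylip, an LXR-induced ligase that removes lipoprotein receptors, at -0.24, neither called.

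The calls on Abcg1 and Sqle held in each of 20 alternatives, with adjusted p of at most 0.012 and 0.0444. The count of 5 was 2 without control replicate 2 or 3, 3 without Notch1 replicate 2 or 3, 2 in a fit of these groups alone and 11 without Zmiz1 replicate 2, a library outside the comparison that enters through the shared variance. The 6 genes added there were Acat2, Cyp51, Mvd, Srebf1 and Tm7sf2, which rose, and Elovl6, which fell, while the calls over all genes went from 557 to 982. With the replicate number as a block the count was also 11, with 1059 calls over all genes. Over all genes 270 and 277 were called without control replicate 2 or 3, and 357 and 379 without Notch1 replicate 2 or 3. Idi1, Fdps and Fads1 each lost the call without control replicate 2 or 3 or Notch1 replicate 3, Fdps also without control replicate 1 or Notch1 replicate 2, Idi1 without Notch1 replicate 1 and Fads1 without Notch1 replicate 2 (adjusted p at most 0.115, 0.106 and 0.0977).

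**Figure D3:**
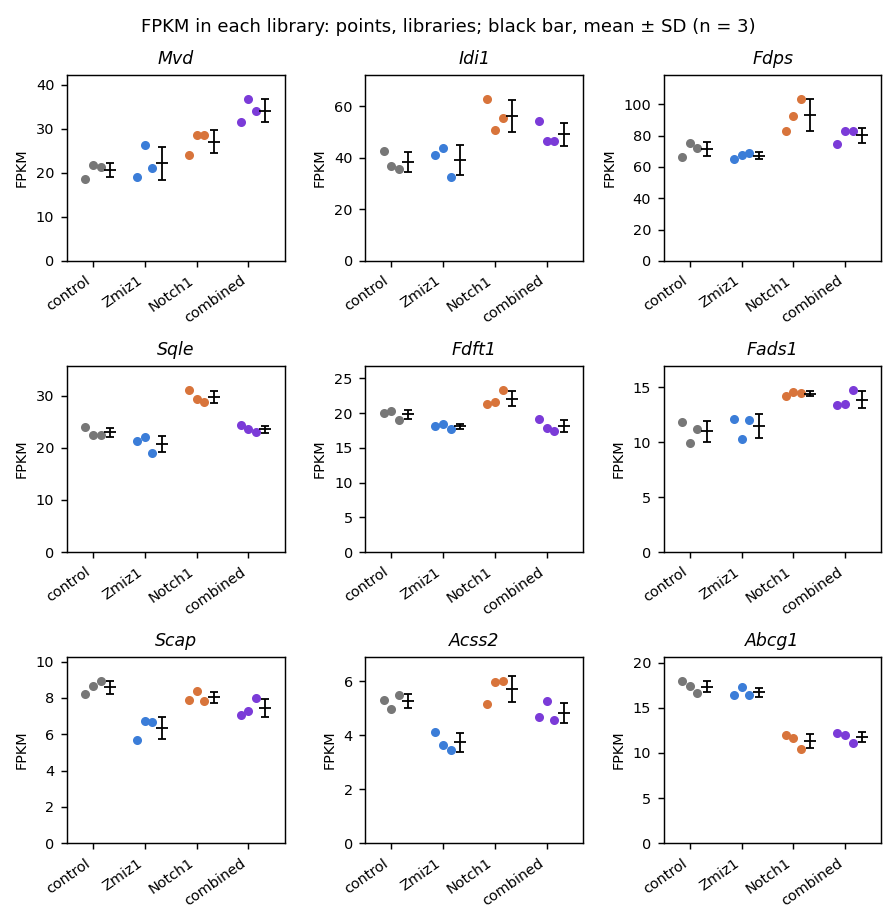
FPKM of the 9 genes called in at least 1 comparison, in each library of the 4 groups, with the mean ± SD (n = 3) as a black bar and the axis starting at 0. Abcg1 is near 17 FPKM without the Notch1 vector and near 11 with it, and Sqle is highest in the 3 Notch1 libraries.

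The comparison of combined with Zmiz1 libraries addresses the same mutant in cells that also carried Zmiz1. The level of Zmiz1 itself was not equal. It lay at 47.6 to 51.0 FPKM in the combined group against 67.7 to 74.4 in the Zmiz1 group (limma adjusted p = 3.12e-04). The part of this difference in the results was not tested. Mvd, which makes isopentenyl diphosphate, rose by 53.9%, Abcg1 fell by 29.7%, and 32 of the 34 genes were not called. That is 5.88% called against 3.86% of all genes, 2.67% higher and 1.19% lower. The libraries did not overlap for 10 genes upward and 1 downward, against 13.5% and 7.54% of all genes (21% in either direction). Mvd (chromosome 8, 122433601 to 122443422) read 19.1, 26.3 and 21.1 FPKM in the Zmiz1 group and 31.5, 36.8 and 34.0 in the combined group, without overlap (log2 fold change 0.61 ± 0.12, adjusted p = 0.0156). In the control it read 18.7, 21.7 and 21.4 FPKM and in the Notch1 group 24.0, 28.5 and 28.5.

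Mvd was thus highest in the combined group, whereas the sterol enzymes were highest in the Notch1 group. Combined against control it rose by 65.6% (0.70 ± 0.12, adjusted p = 0.00498), and this call held in each of 20 alternatives. The call against the Zmiz1 group was lost without Zmiz1 replicate 1 or combined replicate 2 or 3 and in a fit of these groups alone (adjusted p at most 0.0957), so that Abcg1 alone was then called.

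Other cholesterol genes lay above the Zmiz1 group by less. Dhcr7, the last reductase of cholesterol synthesis, read 31.6, 27.3 and 30.0 FPKM in the Zmiz1 group and 37.4, 34.6 and 35.6 in the combined group (0.27 ± 0.07, adjusted p = 0.0686). The groups did not overlap. Idi1 (0.33), Fdps (0.25) and Sqle (0.18) also had every combined library above every Zmiz1 library but were not called, at adjusted p of 0.209, 0.145 and 0.176. Acss2, the acetyl-CoA synthetase (0.30), and Fads1 (0.25) did not overlap either, at adjusted p of 0.0786 and 0.118. The sterol branch had 9 of 10 positive fold changes (median 0.16, and 8 of 10 under either scaling), the mevalonate branch 6 of 8 (median 0.18), and 55% of all genes were positive. Without Zmiz1 replicate 2, in which Cyp51 and Hmgcs1 read 15.3 and 35.1 FPKM against 9.3 to 10.5 and 25.3 to 26.8 in the other Zmiz1 libraries, 10 of 10 sterol genes and 7 of 8 mevalonate genes were positive.

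**Figure D4:**
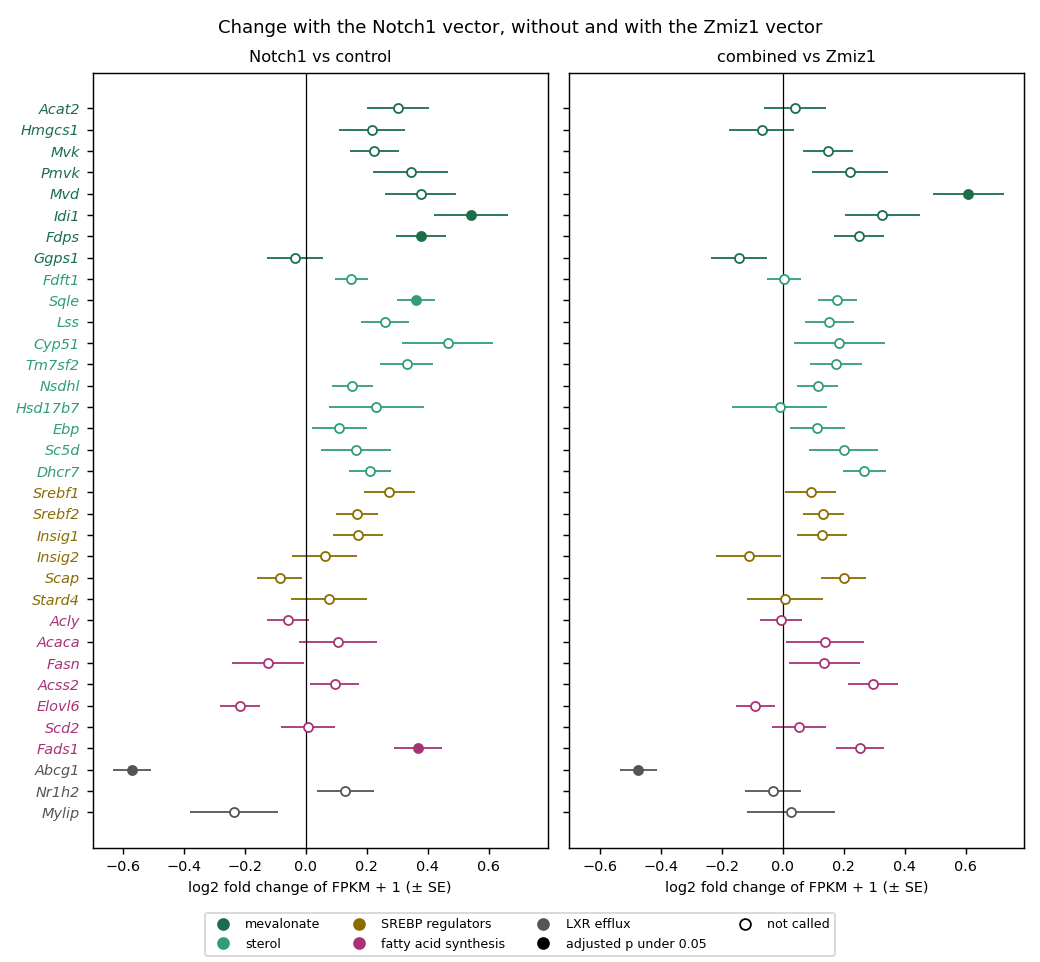
Log2 fold change ± SE of the 34 tested genes with the Notch1 vector, against the control (left) and against the Zmiz1 group (right), coloured by branch, with filled points for genes called. On the left 4 filled points lie to the right of 0 and Abcg1 to the left, and on the right Mvd and Abcg1 are filled.

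Zmiz1 against control addresses the effect of Zmiz1 on its own. The genes called were Scap, the escort of the SREBPs, which fell by 25.9%, and Acss2, which makes acetyl-CoA from acetate and fell by 28.9%. The 2 genes are 5.88% of the 34 tested, against 2.11% of all genes (1.07% higher, 1.03% lower). All Zmiz1 libraries lay above all control libraries for 1 gene and below them for 7, against 8.75% and 9.12% of all genes (17.9% in either direction).

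Scap (chromosome 9, 110333288 to 110384950) read 8.2, 8.63 and 8.91 FPKM in the control and 5.67, 6.74 and 6.66 in the Zmiz1 group. It then read 7.87, 8.38 and 7.81 in the Notch1 group and 7.03, 7.26 and 8.01 in the combined group. The 3 Zmiz1 libraries were the lowest of all 12 (log2 fold change -0.38 ± 0.07 against control, adjusted p = 0.0228). Acss2 (chromosome 2, 155517948 to 155585724) read 5.31, 4.98 and 5.50 FPKM in the control, 4.13, 3.65 and 3.44 in the Zmiz1 group, 5.14, 5.95 and 5.99 in the Notch1 group and 4.67, 5.25 and 4.54 in the combined group. Here too the Zmiz1 libraries were the lowest of all (-0.40 ± 0.08, adjusted p = 0.0301). Neither call was firm. No gene was called without any 1 control library or in a fit of these groups alone, 1 was called without any 1 Zmiz1 library or combined replicate 1 or 3, and the adjusted p reached 0.173 for Scap and 0.146 for Acss2.

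No cholesterol enzyme was called with Zmiz1 alone. The sterol branch had 2 of 10 positive fold changes (median -0.12), from -0.17 for Dhcr7 to 0.04 for Tm7sf2, where 50.5% of all genes were positive. The mevalonate branch had 5 of 8 positive (median 0.05), from -0.13 for Mvk to 0.23 for Acat2. Its median was -0.07 without Zmiz1 replicate 2, which held the highest Acat2 value of all libraries (15.5 FPKM). Scd2 read 121, 106 and 105.7 FPKM in the control and 101.7, 88.5 and 91.4 in the Zmiz1 group (-0.24, adjusted p = 0.277).

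Combined against Notch1 libraries addresses Zmiz1 in cells with the Notch1 mutant. Sqle fell by 20.6% and Fdft1, the squalene synthase just before it, by 17.9%, both steps that lead into sterol. The other 32 genes were not called, and 5.88% called compares with 1.51% of all genes (0.827% higher, 0.68% lower). The libraries did not overlap for 2 genes upward and 9 downward, against 7.6% and 7.81% of all genes (15.4% in either direction). Sqle read 31.1, 29.4 and 28.8 FPKM in the Notch1 group against 24.3, 23.5 and 23.0 in the combined group (log2 fold change -0.32 ± 0.06, adjusted p = 0.0323). Its difference between the combined group and the control was 0.04 ± 0.06 (adjusted p = 0.82). Fdft1 (chromosome 14, 63145150 to 63179578) read 21.3, 21.6 and 23.3 FPKM in the Notch1 group, 19.1, 17.8 and 17.4 in the combined group, 20.1, 20.3 and 19.1 in the control and 18.2, 18.4 and 17.7 in the Zmiz1 group (-0.27 ± 0.06, adjusted p = 0.0409). For both genes the Notch1 libraries were above all others.

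Around them, 0 of 10 sterol genes and 0 of 6 SREBP regulators had a positive fold change (medians -0.15 and -0.14), where 49.6% of all genes were positive. Cyp51 was at -0.31, Hsd17b7 at -0.28, Srebf1 at -0.21, Nsdhl at -0.16, Insig2 at -0.16 and Stard4 at -0.15, none called. Mvd was above the Notch1 group in every library (0.32 ± 0.12, adjusted p = 0.351). Fasn, the fatty acid synthase, was at 0.35 ± 0.12 (adjusted p = 0.294), with 22.6, 26.3 and 17.4 FPKM in the Notch1 group and 26.3, 28.3 and 29.7 in the combined group. Notch1 replicate 3 held the lowest Fasn and Acaca values of all libraries (17.4 and 12.5 FPKM), and without it the median of the fatty acid branch went from 0.06 to -0.05. The calls on Sqle and Fdft1 were both lost without any 1 library of either group, without control replicate 2 or 3, under median ratio scaling and in a fit of these groups alone. Their adjusted p reached 0.16 and 0.2.

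**Figure D5:**
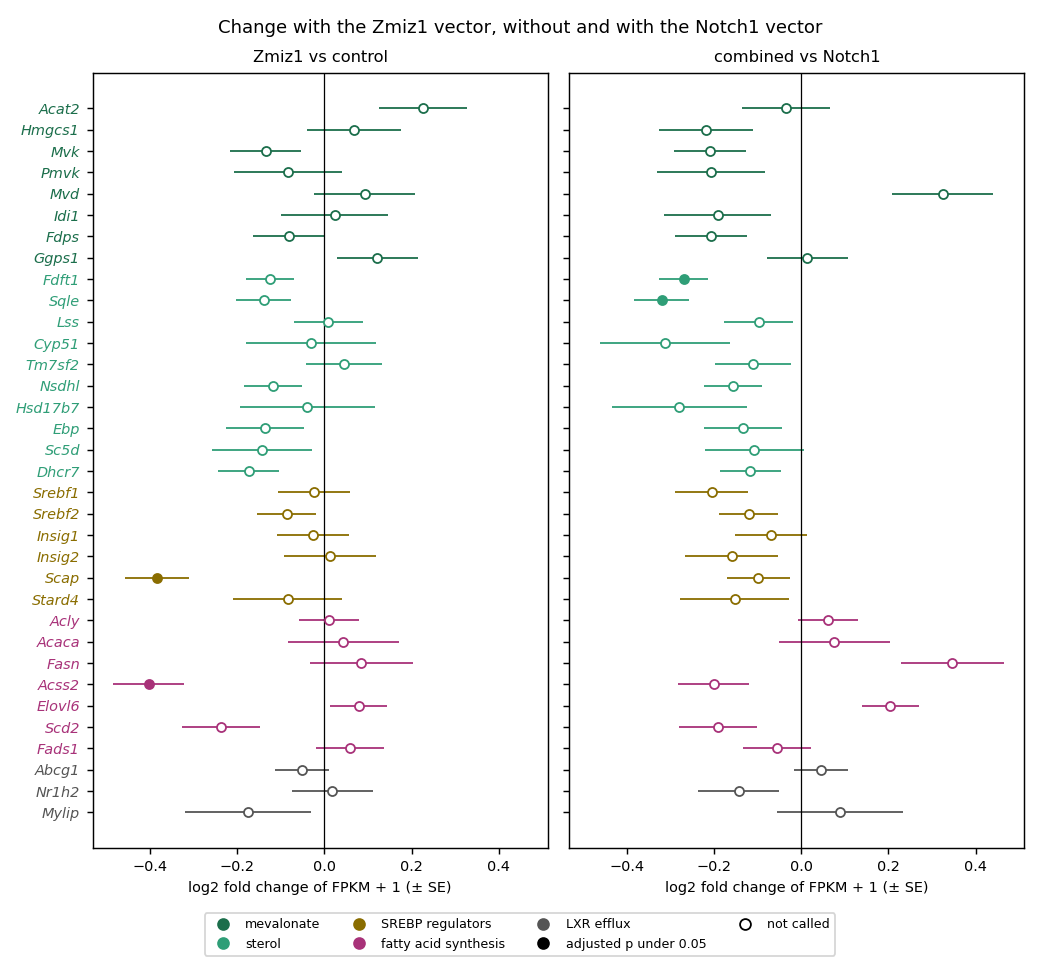
Log2 fold change ± SE of the 34 tested genes with the Zmiz1 vector, against the control (left) and against the Notch1 group (right), coloured by branch, with filled points for genes called. Scap and Acss2 are filled on the left, and Fdft1 and Sqle on the right, where all 10 sterol genes lie left of 0.

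Seen by group, the Notch1 group had the highest mean of the 4 groups for 25 of the 34 genes. These were 10 of 10 sterol genes, 6 of 8 mevalonate genes, 5 of 6 SREBP regulators, 3 of 7 fatty acid genes and 1 of 3 LXR genes. Among all genes tested, 30.8% were highest there. The Zmiz1 group had the lowest mean for 17 of the 34, 7 of them sterol genes and 5 SREBP regulators, against 31.4% of all genes. Comparisons that use the Notch1 group share its 3 libraries, so its position enters both the rise against the control and the fall in combined libraries.

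With both vectors against the control, Mvd and Fads1 rose and Abcg1 fell, 8.82% called against 6.46% of all genes (3.97% higher, 2.49% lower). The libraries did not overlap for 8 genes upward and 3 downward, against 20.1% and 13.5% of all genes (33.6% in either direction). Fads1 read 13.3, 13.4 and 14.7 FPKM in the combined group, above every control library (0.31 ± 0.08, adjusted p = 0.0396). That call was lost without any 1 control or combined library, without Notch1 replicate 1 or 2, without the filter and under either scaling (adjusted p at most 0.168). The median of the sterol branch was 0.05 and that of the mevalonate branch 0.15. Idi1 was at 0.35 with no overlap (adjusted p = 0.141), and Acat2 at 0.27 with no overlap (adjusted p = 0.177).

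The interaction asked whether the change with both vectors differed from the sum of the separate changes. By limma 0 of 34 genes were called, 1 had an unadjusted p under 0.05 (Scap, 0.29 ± 0.10; 3.27% of all genes had one), and 0.069% of all genes were called (0.0197% higher, 0.0493% lower). No effect on a member was therefore shown to differ with the other vector, Sqle (-0.18 ± 0.09) and Mvd (0.23 ± 0.17) included. The members' fold changes were negative for 7 of 8 mevalonate and 7 of 10 sterol genes (medians -0.12 and -0.13). Zmiz1 itself, not a member, was called lower in the interaction (-0.56 ± 0.07, adjusted p = 0.0266).

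Of 70 further genes that supply, use, store or burn these lipids, 63 were tested. In Notch1 against control 1 rose and 1 fell (3.17% called, against 5.49% of all genes), and in combined against Zmiz1 4 rose and 1 fell (7.94%, against 3.86%). In Zmiz1 against control 1 rose (1.59%, against 2.11%), and in combined against Notch1 2 rose (3.17%, against 1.51%). In combined against control 4 rose and 1 fell (7.94%, against 6.46%). Sec24d, a cargo-binding subunit of the COPII coat that carries cargo out of the endoplasmic reticulum, had the widest range. It averaged 1.32 ± 0.0659 FPKM in the control, 1.78 ± 0.0809 in the Zmiz1 group, 3.42 ± 0.173 in the Notch1 group and 5.57 ± 0.434 in the combined group (SD, n = 3). It rose with Notch1 against control (0.93, adjusted p = 2.89e-05), in combined against Notch1 (0.57, adjusted p = 0.00168) and in combined against Zmiz1 (1.24, adjusted p = 2.78e-06).

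Pcyt1a, which sets the pace of phosphatidylcholine synthesis, was also lower in both groups with the Notch1 vector. It averaged 49.1 ± 2.48 FPKM in the control and 48.4 ± 3.51 in the Zmiz1 group, against 34.4 ± 2.79 in the Notch1 and 36.1 ± 0.482 in the combined group. It fell in Notch1 against control (-0.50, adjusted p = 0.00231), in combined against Zmiz1 (-0.41, adjusted p = 0.00986) and in combined against control (-0.43, adjusted p = 0.00506).

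Cpt1a, which admits fatty acids to mitochondria for oxidation, rose with the Zmiz1 vector in both comparisons. It averaged 33.8 ± 0.293 FPKM in the control, 43.1 ± 3.33 in the Zmiz1 group, 28.1 ± 2.04 in the Notch1 group and 36.9 ± 0.925 in the combined group. It rose in Zmiz1 against control (0.34, adjusted p = 0.0306) and in combined against Notch1 (0.38, adjusted p = 0.0204). The other oxidation genes tested were not called. Scarb1, the HDL receptor (0.30, adjusted p = 0.0207), and Lpin1, a phosphatidate phosphatase (0.25, adjusted p = 0.0464), rose in combined against Zmiz1. Rabggtb, a subunit of the enzyme that attaches geranylgeranyl groups to Rab proteins (0.44, adjusted p = 0.0135), and Acsl1, an acyl-CoA synthetase (0.36, adjusted p = 0.049), rose in combined against control. Several of these calls ended when 1 library was left out. For Scarb1 this was combined replicate 2 or 3, for Pcyt1a against the Zmiz1 group combined replicate 2, and for Rabggtb control replicate 1 or 2 or combined replicate 3 (adjusted p at most 0.128, 0.0508 and 0.0664 over all alternatives). For Cpt1a against control it was any control or combined library or Zmiz1 replicate 1 or 3, and against the Notch1 group any combined library or Notch1 replicate 3 (at most 0.142 and 0.108). For Lpin1 it was any control, Zmiz1 or combined library or Notch1 replicate 1 or 2, and for Acsl1 any control, Notch1 or combined library or Zmiz1 replicate 3 (at most 0.184 and 0.176). Without the filter or under median ratio scaling, Lpin1 and Acsl1 were not called either. Lpin1 was also lost under quantile normalization, with robust variances and in a fit of its groups alone, so that it held in 3 of 19 alternatives. Cpt1a against control was lost under quantile normalization and in a fit of its groups alone, and the latter also ended the calls on Scarb1 and on Cpt1a against the Notch1 group.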

How the data were processed

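The 12 libraries, 3 in each of 4 groups, came from 8946 cells and were prepared with the TruSeq mRNA v2 kit, which does not keep strand. The authors deposited FPKM, 1 value per gene symbol and library, per the file headers and names. The submitters' processing notes name build mm10, Cuffdiff 2.1.1, Cufflinks, Bowtie2 2.1.0.0, TopHat2 2.0.9 and FastQC 0.10.0, and the annotation and any scaling between libraries are not given in the sources used here. The deposited FPKM entered as log2(FPKM + 1). A mean of 1 FPKM or more over all libraries kept 10152 of 23284 genes. On this scale fold changes of low genes are understated. Groups followed the titles.

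One limma model (version 3.58.1, R 4.3.3) with 4 group means, moderated variances and an intensity trend gave 5 pairwise comparisons and the interaction, two-sided, at an adjusted p of 0.05. With 3 libraries a side, no exact permutation p can be under 0.1. Every one of the 37 members is named, with all called members per comparison and up to 4 called genes of the 70 other lipid genes with the largest change. Members and lists were chosen with earlier results of these data known. Alternatives were a pseudocount of 0.1, no filter or one at 5 FPKM, median ratio scaling, quantile normalization, a replicate block, only the groups compared, robust variances and each library left out. In a group left with 2 libraries, the spread came from the shared model. The fit was tested on simulated data for Notch1 against control, with 200 changed genes in each of 5 runs. It called 48% of genes changed 1.3-fold and 80.4% of those changed 1.5-fold, and 4.92% of the calls were false. The simulated spread was independent between libraries, and the changed genes were not among the lowest in level. A gene that was not called may thus have changed by such an amount. The depth check found 43.5% of low values at a whole multiple (within 0.05) of the gene's lowest value, so reads were not recovered. Figures used Python 3.11.15 and matplotlib 3.10.9.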

Additional observations from a re-analysis of the deposited data

How the results depend on the processing

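With the replicate number as a block, the genes called numbered 11 in Notch1 against control (9 rising, 2 falling), 4 in combined against Zmiz1, 5 in combined against control, and 3 in both Zmiz1 comparisons. All calls of the fit without a block were among them. The block added Mvd, Pmvk, Dhcr7, Srebf1, Tm7sf2 and Elovl6 in Notch1 against control (adjusted p of 0.00751, 0.0131, 0.0248, 0.0264, 0.0348 and 0.0451), Dhcr7 and Fdps in combined against Zmiz1 (0.0116 and 0.0237), Scd2 in Zmiz1 against control (0.0209), Mvd in combined against Notch1 (0.0337), and Idi1 and Scd2 in combined against control (0.041 and 0.0253). Over all genes, the block raised the calls from 557 to 1059 in Notch1 against control and from 656 to 1158 in combined against control. Of 18 same-numbered pairs of libraries, 6 had deviations from the group means that correlated above 0.1 (range -0.176 to 0.267), and the labels give the numbers no shared batch or day. As not every pair reached 0.1, the numbers were not taken as pairs. That 8 of 12 libraries, not all, correlated best with their own number is a hint from the data of something shared. Another is that libraries numbered 1 were highest of their group in all 4 groups for 11.5% of all genes tested and lowest for 14.5%. For libraries numbered 2 and 3 these shares ran from 1.57% to 2.61%. The fit without a block left any such shared part in the spread within groups. Genes not called there may therefore be called with the block, and what is shared was not tested. When the fit held just the groups compared, 2, 1, 0 and 0 genes were called in Notch1 against control, combined against Zmiz1, Zmiz1 against control and combined against Notch1. Zmiz1 against control had 1 gene without the filter, with the filter at 5 FPKM (which left out Acss2) and under quantile normalization. Combined against Notch1 had 0 under median ratio scaling and 1 under quantile normalization or robust variances. Leaving out each library in turn gave 2 to 11, 1 to 2, 0 to 2, 0 to 2 and 2 to 4 genes in Notch1 against control, combined against Zmiz1, Zmiz1 against control, combined against Notch1 and combined against control, and 0 in the interaction. Pmvk was added without Notch1 replicate 1 (adjusted p = 0.0324) in Notch1 against control, Tm7sf2 with robust variances or without Zmiz1 replicate 3 (0.0464 and 0.0452), and Acat2 in combined against control without Zmiz1 replicate 2 or with just the groups compared (0.0164 and 0.0191). No called gene changed direction in any alternative. Otherwise, apart from the smaller number of libraries, the cause was not tested. The unknown read depth limits Fads2, Scd1 and Abca1.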

Other observations

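In every group, libraries numbered 1 differed from the others over the whole set of genes tested. They were highest in all 4 groups for 11.5% of all genes tested and lowest for 14.5%, so the pattern was not particular to this module. Of the 34 tested members, 6 were highest there (Hsd17b7, Ebp, Sc5d, Dhcr7, Stard4 and Scd2). Another 5 were lowest there (Pmvk, Mvd, Fdps, Srebf1 and Nr1h2). Libraries numbered 2 and 3 had such a position for 1 and 0 members (highest) and 0 and 3 members (lowest). Of all genes, 1.95% and 2.61% were highest, and 2.12% and 1.57% lowest, in those libraries.

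Notch1 replicate 1 held the highest value of all 12 libraries for 12 of the 34 tested members, against 7.03% of all genes. Notch1 replicates 2 and 3 held it for 5 members each, against 7.24% and 20.8% of all genes. The mean of the Notch1 group was highest for 25 of the 34, against 30.8% of all genes. Zmiz1 replicate 3 held the lowest value for 9 members, against 6.16% of all genes. Zmiz1 replicates 1 and 2 held it for 7 and 6, against 9.99% and 22.3% of all genes. The mean of the Zmiz1 group was lowest for 17, against 31.4% of all genes. These counts thus partly restate the group differences.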
